A study of Mus musculus with 6 samples.

Results

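The genes described here are 42 mouse genes of DNA replication and cell division, taken by name from a table of 34745 genes and kept whatever their level. By role they were 16 replication genes, which load and run the replication fork or supply its nucleotides, 3 G1 cyclins and 23 mitosis genes. Their messenger RNA was read in 6 liver libraries, a single library for each tissue and sex, all of strain C57BL/6 with no treatment. Normal liver came from wild-type mice, and precancerous liver and liver tumour (hepatocellular carcinoma, the main cancer of hepatocytes) from Hras12V transgenic mice, which carry an activated form of the growth signal switch HRAS. The male mice were 9 and the female mice 15 months of age in every tissue, and sex therefore cannot be told from age. The labels give neither the promoter that drives the transgene, nor the number of mice per library, nor whether tumour and precancerous tissue shared a mouse.

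Most hepatocytes of an adult liver are at rest, outside the cell cycle. A cell that enters the cycle first makes G1 cyclins, then the Mcm2 to Mcm7 helicase that is loaded at replication origins by Cdc6 and Cdt1, and later, in G2 and M phase, the kinases, cyclins and motor proteins that separate the chromosomes. Early genes of this series are known targets of E2F factors. Late genes are known to be repressed in resting cells and activated in dividing ones through the DREAM and MuvB complexes, which bind a promoter element called the CHR, with NF-Y bound at nearby CCAAT boxes.

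Total counts lay between 5996585 and 7347064 in males and between 15047022 and 18434508 in females, so female values rest on more counts. Albumin took between 5.74% and 13.99% of counts in each library, and the hepatocyte markers, albumin among them, had 1 of 8 higher and 3 lower in tumours against precancerous liver. The share of counts from mitochondrial genes stepped down over normal, precancerous and tumour liver in both sexes, at 4.80%, 3.10% and 1.91% in males and 7.31%, 5.92% and 3.79% in females. Its part in the changes below was not tested. All 5 liver tumour markers (Afp, Gpc3, H19, Ly6d and Cdh17) rose in tumours against precancerous liver. Each group is a single library. Tissues were therefore compared with edgeR's quasi-likelihood test in an additive model of tissue and sex over all 6 libraries, so that a change unlike in size between the sexes adds to the error. Calls were made at an adjusted p under 0.05 (Benjamini-Hochberg, over 13705 genes), and a log2 fold change is given with its standard error (SE). These p-values measure only the spread between these 6 libraries. Levels are given in FPKM (fragments scaled to gene length and library total), and the 3 values of a sex always stand in the order normal, precancerous, tumour.

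The mitosis genes as a group were low in normal and precancerous liver and several-fold higher in both tumours. Their summed level, in CPM (counts scaled to the library total), was 31.9 in normal, 30.04 in precancerous and 131.3 in tumour liver of males. In females it was 30.2, 40.1 and 186.6 in the same order. Both tumours thus stood far above all 4 other libraries. The tumour sum was 4.37-fold the precancerous sum in males (95% counting interval 3.76 to 5.11) and 4.65-fold in females (4.26 to 5.08). These intervals, like all those given for single pairs of libraries, cover counting error only and are no test of the tissues.

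The replication genes did not follow this step as a group. Their summed level was 224.6, 191.2 and 210.4 CPM in males and 142.7, 152.4 and 169.4 CPM in females. The tumour sum was 1.10-fold the precancerous sum in males (1.02 to 1.19) and 1.11-fold in females (1.05 to 1.17). This near-level sum held opposite movements: Mcm10 and Tk1, which fell, made up 56.7% of the summed replication counts in male normal liver, 39.8% in male precancerous liver and 9.77% in male tumour, and 37.2%, 37.0% and 11.5% in females. Without Mcm10 and Tk1, a choice made after their values were seen, the other 14 genes summed to 97.2, 115.2 and 189.9 CPM in males and to 89.6, 96.0 and 149.9 CPM in females. The ratio of the mitosis sum to the replication sum was 0.142, 0.157 and 0.624 in males and 0.212, 0.263 and 1.10 in females. In bulk tissue, more dividing cells and more RNA in each dividing cell cannot be told apart.

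**Figure D1:**
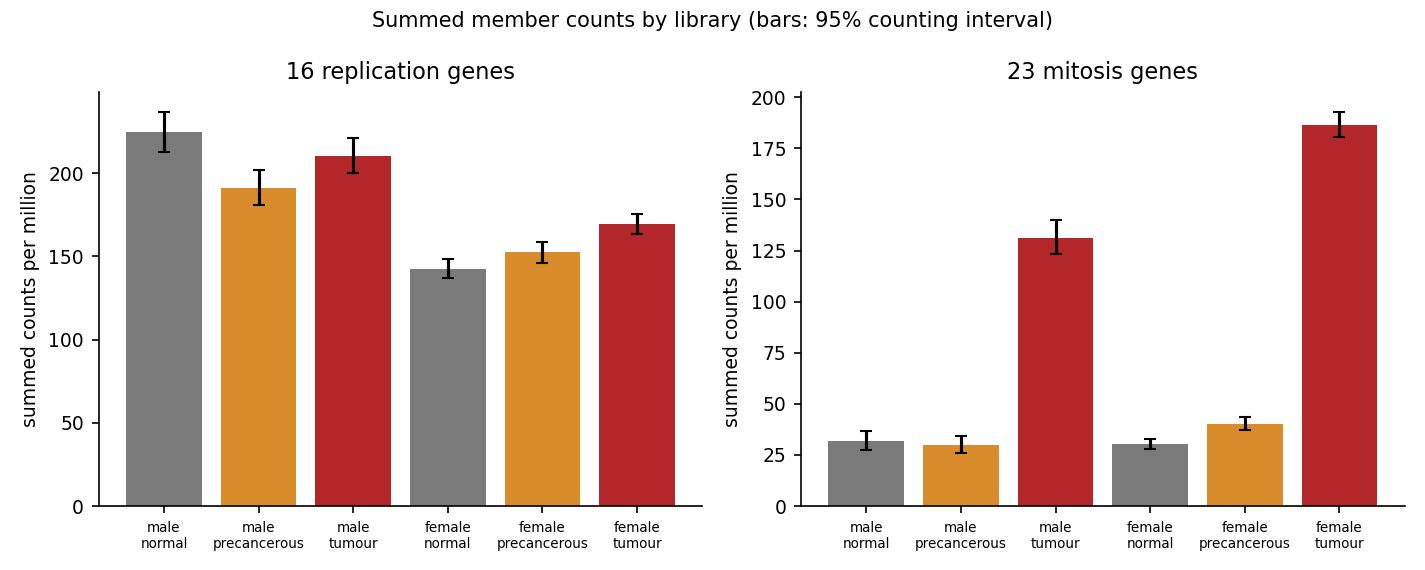
Summed CPM (vertical axes, starting at 0) of the 16 replication genes (left) and the 23 mitosis genes (right) in each of the 6 libraries, with 95% counting intervals. The mitosis sums of both tumours, 131.3 and 186.6, stand above the 4 other libraries, which lie between 30.04 and 40.1, while the replication sums lie between 142.7 and 224.6 with no such step.

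Between tumour and precancerous liver, 24 of the 42 genes rose and 2 fell in edgeR's test, where 13.4% of all genes tested were called higher and 11.6% lower. Of the mitosis genes, 19 of 23 rose and none fell, with a median log2 fold change of 2.35. Of the replication genes, 4 of 16 rose and 2 fell, with a median of 0.42. The median over all 13705 genes was 0.02. By plain order of the libraries, both tumours stood above the 4 other libraries for 22 of 23 mitosis genes and 10 of 16 replication genes, which was so for 22.9% of all genes; both stood below for Mcm10 and Tk1, as for 15.2% of all genes. The count of called members rests on both precancerous libraries: it was 4 without male precancerous and 2 without female precancerous liver, when 4.13% and 3.96% of all genes were called, and 17 without the female tumour, when 15.5% were. A model of tissue alone called 1. The calls of Bub1, Ccnb1 and Mcm3 were lost in DESeq2, those of Mcm3, Mcm10 and Ube2c in both limma tests on FPKM, and those of Kif20a and Ccnb2 in a single one of them.

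**Figure D2:**
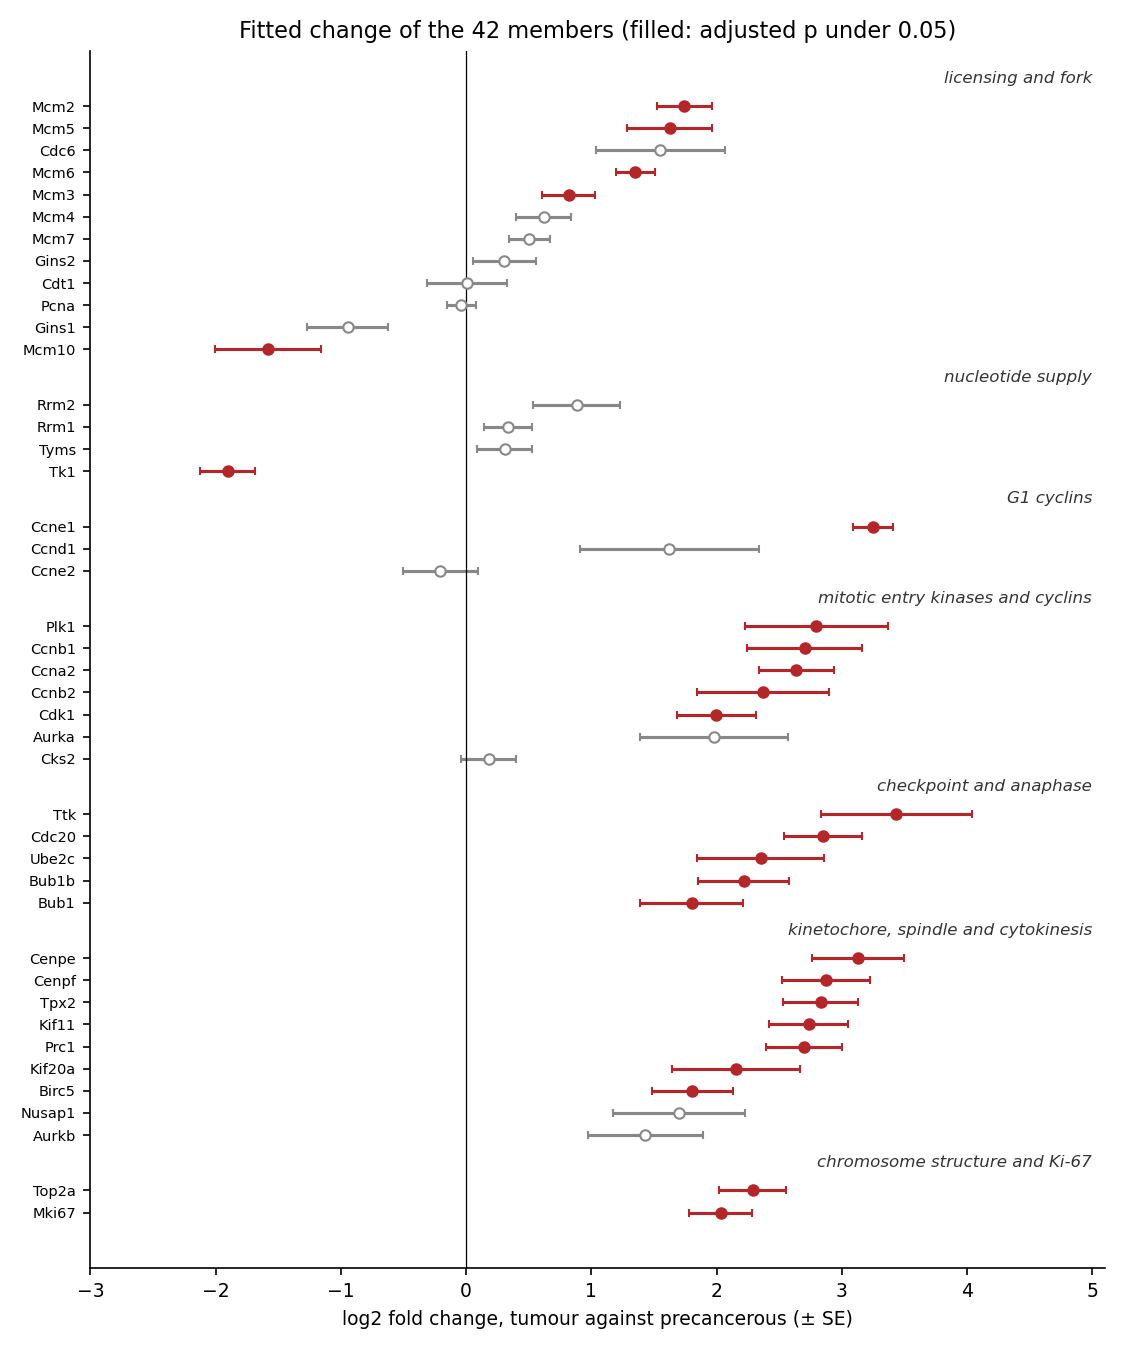
Log2 fold change of tumour against precancerous liver (horizontal axis) for each of the 42 genes by role, with its SE; filled points passed an adjusted p under 0.05 in edgeR's test. All 23 mitosis genes lie to the right of 0 and 19 are filled, while replication genes spread from -1.90 (Tk1) to 1.74 (Mcm2).

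Of the genes that load the helicase and build the fork, Mcm2, Mcm3, Mcm5 and Mcm6, all subunits of the ring-shaped helicase that unwinds DNA, rose in tumours. Mcm2 was at 0.540, 0.567 and 1.87 FPKM in males and at 0.373, 0.564 and 2.07 FPKM in females. Both tumours lay well above the other libraries, whose values overlapped, and the log2 fold change was 1.74 ± 0.22 (SE, adjusted p = 0.00679, edgeR). Mcm5 stood at 0.926, 0.848 and 4.34 FPKM in males and 0.877, 0.990 and 2.16 FPKM in females, a log2 fold change of 1.63 ± 0.34 (adjusted p = 0.0245, edgeR). Its level was higher in the male than in the female tumour, and the 4 other libraries lay between 0.848 and 0.990 FPKM. Mcm6 was at 1.20, 1.52 and 4.03 FPKM in males and 1.01, 1.05 and 2.82 FPKM in females (1.35 ± 0.16, adjusted p = 0.00606, edgeR), and Mcm3 rose least (0.82 ± 0.21, adjusted p = 0.0433, edgeR), a call also lost without either tumour or either precancerous library. The other subunits of the ring did not pass: Mcm4 had a log2 fold change of 0.62 ± 0.22 and Mcm7 of 0.50 ± 0.17, with both tumours above the 4 other libraries for each. Subunits of a single complex thus had log2 fold changes from 0.50 to 1.74.

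The loading factors Cdc6 and Cdt1 did not pass. Cdc6 was the lowest replication gene in every library, at 0.0347, 0.0905 and 0.354 FPKM in males and 0.0648, 0.0622 and 0.152 FPKM in females. It had 25 and 27 counts in the male and female tumour and at most 11 elsewhere (1.55 ± 0.52, adjusted p = 0.0833, edgeR). Cdt1 went in FPKM from 1.33 to 2.05 between male precancerous and tumour tissue and from 2.31 to 1.81 in females, so the sexes lay in opposite order and its fitted change was 0.01 ± 0.32. Pcna, the sliding clamp that holds polymerases on DNA, was the steadiest gene of the group: 6.56, 7.36 and 7.60 FPKM in males, 5.79, 6.13 and 6.14 FPKM in females. Its log2 fold change was -0.04 ± 0.11, on between 138 and 397 counts per library. Gins1 and Gins2 encode subunits of GINS, which joins the helicase when forks start. Gins1 was at 1.79, 2.11 and 1.46 FPKM in males and 1.34, 1.498 and 0.642 FPKM in females (-0.94 ± 0.32, adjusted p = 0.0897, edgeR).

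Mcm10, a fork protein that helps to activate the loaded helicase, fell. Its level was 10.5, 4.55 and 1.11 FPKM in males and 3.02, 2.68 and 1.16 FPKM in females. Both tumours were below all other libraries, the male normal library was far above the rest, and the log2 fold change of tumour against precancerous was -1.58 ± 0.42 (adjusted p = 0.0484, edgeR). It was the replication gene with the highest FPKM in male normal liver and supplied 50.3% of the summed replication counts there, against 22.7% in female normal liver and 5.69% and 7.37% in the male and female tumour. No exon of another annotated gene overlaps it (chr2:4989714-5012791, GRCm38). The call was lost with library totals in place of TMM scaling, in both limma tests on FPKM, under an FPKM filter, in a model of tissue alone, and without the male precancerous, female precancerous or male tumour library; the direction stayed the same in each.

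Of the nucleotide supply genes, Tk1 alone was called, and it fell. Tk1 encodes thymidine kinase 1, which salvages thymidine for DNA synthesis. It was at 1.94, 3.67 and 1.16 FPKM in males and at 2.80, 3.73 and 0.940 FPKM in females. In both sexes the precancerous library was highest and the tumour lowest, with no overlap between tumours and the rest, and the log2 fold change of tumour against precancerous was -1.90 ± 0.22 (adjusted p = 0.00579, edgeR). Tk1 shares 1.6% of its exonic bases, 83 bases, with exons of Afmid on the other strand. Afmid, an enzyme of tryptophan breakdown, stood at 16.6, 18.8 and 5.37 FPKM in males and 31.7, 25.9 and 7.63 FPKM in females, so it too was lowest in both tumours. Its part in the Tk1 values was not tested. Birc5, a mitosis gene that lies 23159 bases from Tk1 on the same chromosome, rose (1.81 ± 0.32, adjusted p = 0.0161, edgeR).

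Rrm1 and Rrm2, the subunits of ribonucleotide reductase, and Tyms, thymidylate synthase, make deoxynucleotides from precursors. None of these 3 passed, though both tumours were above the 4 other libraries for each. Rrm2 was at 1.97, 2.93 and 3.59 FPKM in males and 1.22, 2.07 and 5.57 FPKM in females. Its tumour level was 1.23-fold the precancerous level in males (0.898 to 1.68) and 2.69-fold in females (2.18 to 3.34), and the fitted change was 0.88 ± 0.35 (adjusted p = 0.123, edgeR). Rrm1 had a log2 fold change of 0.33 ± 0.19 and Tyms of 0.31 ± 0.22.

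**Figure D3:**
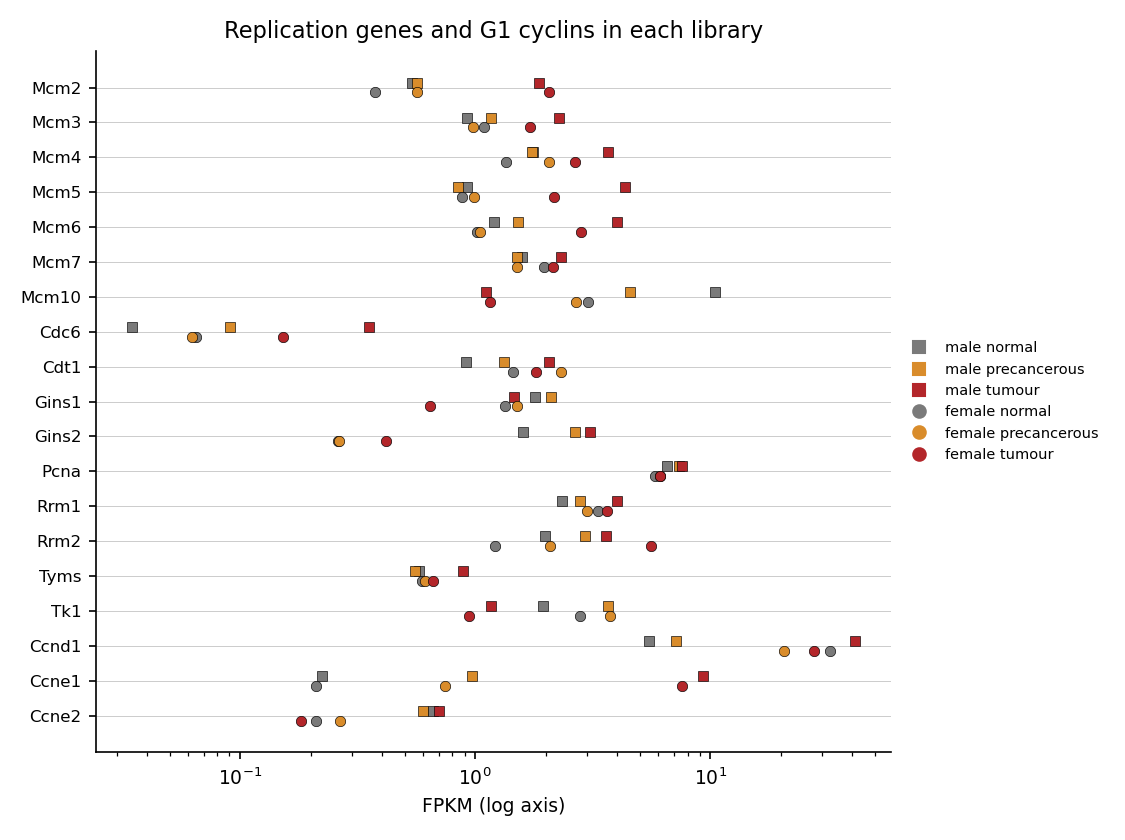
FPKM (log axis) of the 16 replication genes and 3 G1 cyclins in each library; squares are male and circles female libraries, grey normal, orange precancerous and red tumour. Mcm10 and Tk1 have both tumours at the low end, Ccne1 has them far to the right, Pcna is nearly level, and Gins2 and Ccne2 separate by sex instead of tissue.

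Ccne1 had the largest tumour change of the 3 G1 cyclins. It encodes cyclin E1, which with Cdk2 starts S phase. It stood at 0.222, 0.966 and 9.27 FPKM in males and at 0.211, 0.743 and 7.57 FPKM in females. The levels stepped up in the same order in both sexes, and the tissues did not overlap. The log2 fold change was 3.25 ± 0.16 between tumour and precancerous liver (adjusted p = 0.00179, edgeR) and 5.14 ± 0.20 between tumour and normal liver (adjusted p = 0.000753, edgeR). Between precancerous and normal liver it was 1.89 ± 0.24, which missed the threshold (adjusted p = 0.0616, edgeR). That last fold was 4.35 in males (1.64 to 14.6) and 3.52 in females (1.88 to 6.98), on 5 and 14 counts in the normal libraries. It was called with DESeq2, without the filter on low counts and without the female tumour.

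Its close relative Ccne2, cyclin E2, did not share this pattern. Ccne2 was at 0.664, 0.596 and 0.699 FPKM in males and 0.211, 0.265 and 0.181 FPKM in females, with a log2 fold change of -0.21 ± 0.30 for tumour against precancerous. Its libraries were ordered by sex and not by tissue. Ccnd1, cyclin D1, which links growth signals to the cycle, was at 5.51, 7.17 and 41.4 FPKM in males and 32.2, 20.6 and 27.7 FPKM in females. Female normal liver was thus nearer to the male tumour than to male normal liver. The tumour level was 5.77-fold the precancerous level in males (4.98 to 6.72) and 1.35-fold in females (1.26 to 1.44), and the fitted change of 1.62 ± 0.71 did not pass (adjusted p = 0.157, edgeR).

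The genes of mitotic entry rose in tumours with 2 exceptions out of 7, Aurka and Cks2. Cdk1, the kinase that starts mitosis, was at 0.233, 0.232 and 1.22 FPKM in males and 0.181, 0.385 and 1.42 FPKM in females. The tumours were above all other libraries by a wide gap (2.0 ± 0.32, adjusted p = 0.0121, edgeR). Its partner Ccnb2, cyclin B2, stood at 0.541, 0.283 and 2.47 FPKM in males and 0.257, 1.08 and 5.17 FPKM in females (2.37 ± 0.53, adjusted p = 0.0292, edgeR). Ccnb1, cyclin B1, was the lowest member on average, at 0.0207, 0.0361 and 0.203 FPKM in males and 0.0141, 0.0413 and 0.317 FPKM in females. It had at most 5 counts outside the tumours and 12 and 47 counts in the male and female tumour. Ccna2, cyclin A2, which acts from S phase into mitosis, rose by 2.64 ± 0.30 (adjusted p = 0.00566, edgeR).

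Plk1, the polo-like kinase of mitotic entry and spindle assembly, had 1, 0 and 16 counts in males and 9, 17 and 114 counts in females. Against a floor of 3 counts in the male precancerous library, the male tumour was at least 5.003-fold higher; the female tumour was 5.47-fold the precancerous level (3.27 to 9.72). Aurka, a kinase of the spindle poles, gave different ratios in the 2 sexes. It was at 0.516, 0.599 and 1.05 FPKM in males and 0.277, 0.274 and 2.13 FPKM in females. The female tumour was 7.75-fold the precancerous level (4.62 to 13.9) and the male tumour 1.76-fold (0.929 to 3.45), and the fitted change of 1.98 ± 0.59 did not pass (adjusted p = 0.0645, edgeR).

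Cks2, a small protein that binds Cdk1, was the exception among the mitosis genes in each respect. It had the highest FPKM of the 23 in 5 of the 6 libraries, at 8.92, 10.3 and 13.4 FPKM in males and 4.26, 4.61 and 4.94 FPKM in females. Its levels separated the sexes and not the tissues, its log2 fold change of tumour against precancerous was 0.18 ± 0.22, and both tumours did not stand clear of the other libraries. Its transcript is short, so Cks2 supplied 71.9% of the summed mitosis FPKM in male precancerous liver and 11.8% in the female tumour. A sum of FPKM in place of counts gave 2.39-fold in males and 3.57-fold in females for tumour against precancerous.

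All 5 genes of the spindle checkpoint and anaphase rose. Bub1, Bub1b and Ttk are kinases or kinase-like proteins that hold anaphase until chromosomes are attached, and Cdc20 and Ube2c then drive the anaphase-promoting complex, which marks cyclin B for destruction. Cdc20 was at 0.218, 0.126 and 1.30 FPKM in males and 0.641, 0.665 and 4.67 FPKM in females. In each sex the tumour was clear of the others, the female values were above the male ones in every tissue, and the log2 fold change was 2.85 ± 0.31 (adjusted p = 0.00526, edgeR). Ube2c stood at 0.3002, 0.157 and 0.931 FPKM in males and 0.224, 0.574 and 3.10 FPKM in females (2.35 ± 0.51, adjusted p = 0.0269, edgeR). Ttk had the largest fitted change of the 42 genes, 3.44 ± 0.60 (adjusted p = 0.0155, edgeR). It rested on 2, 3 and 16 counts in males and 7, 2 and 58 in females, so its tumour to precancerous ratio of 23.7 in females had an interval from 6.26 to 200.1. Bub1b rose by 2.22 ± 0.37 (adjusted p = 0.0136, edgeR) and Bub1 by 1.80 ± 0.41 (adjusted p = 0.0315, edgeR).

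Of 9 genes of the kinetochore, spindle and cytokinesis, 7 rose, and both tumours stood above the 4 other libraries for all 9. Cenpe, the kinetochore motor that moves chromosomes to the metaphase plate, was at 0.0530, 0.0615 and 0.462 FPKM in males and 0.108, 0.0634 and 0.644 FPKM in females (3.13 ± 0.37, adjusted p = 0.00606, edgeR). Tpx2, a spindle assembly factor that activates Aurka, stood at 0.0922, 0.0802 and 0.753 FPKM in males and 0.133, 0.193 and 1.31 FPKM in females (2.83 ± 0.30, adjusted p = 0.00483, edgeR). Outside the tumours both genes were at most at 0.193 FPKM, and the tumours of both sexes were clear of that. Kif11, the motor that pushes spindle poles apart, was at 0.450, 0.181 and 1.38 FPKM in males and 0.341, 0.234 and 1.58 FPKM in females, lowest in precancerous liver of both sexes (2.73 ± 0.32, adjusted p = 0.00588, edgeR). Cenpf of the outer kinetochore (2.87), Prc1 of the central spindle (2.70), the cytokinesis motor Kif20a (2.15) and Birc5 (1.81), the survivin subunit of the chromosomal passenger complex, also rose, as log2 fold changes. Aurkb, the kinase of that same complex, had a log2 fold change of 1.43 ± 0.46 (adjusted p = 0.0756, edgeR), and Nusap1, which bundles spindle microtubules, of 1.70 ± 0.53 (adjusted p = 0.0706, edgeR); neither passed.

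Top2a, the topoisomerase that untangles chromosomes, and Mki67, the Ki-67 protein that coats them and is used in pathology to score dividing cells, both rose. Top2a was at 0.140, 0.311 and 1.48 FPKM in males and 0.253, 0.279 and 1.48 FPKM in females, so its tumour levels were nearly the same in the 2 sexes (2.29 ± 0.27, adjusted p = 0.00603, edgeR). Mki67 was at 0.414, 0.374 and 2.54 FPKM in males and 0.630, 1.02 and 3.29 FPKM in females (2.03 ± 0.25, adjusted p = 0.00667, edgeR). It gave between 12.6% and 25.7% of the summed mitosis counts of a library. The male tumour was 6.78-fold the precancerous level (4.49 to 10.7) and the female tumour 3.22-fold (2.69 to 3.86), since female precancerous liver was already above male precancerous liver.

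Even in tumours the mitosis genes were low. Their median was 0.207, 0.157 and 0.848 FPKM in males and 0.181, 0.262 and 1.42 FPKM in females. At least 1 FPKM was reached by 9 of 23 in the male tumour and 14 of 23 in the female tumour, and by 1 to 3 in the other libraries. All 42 members had enough counts over the 6 libraries to be tested, but only 22 had 10 counts or more in each library, and 2 of them (Ccnb1 and Ttk) reached 10 counts in no library outside the tumours.

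**Figure D4:**
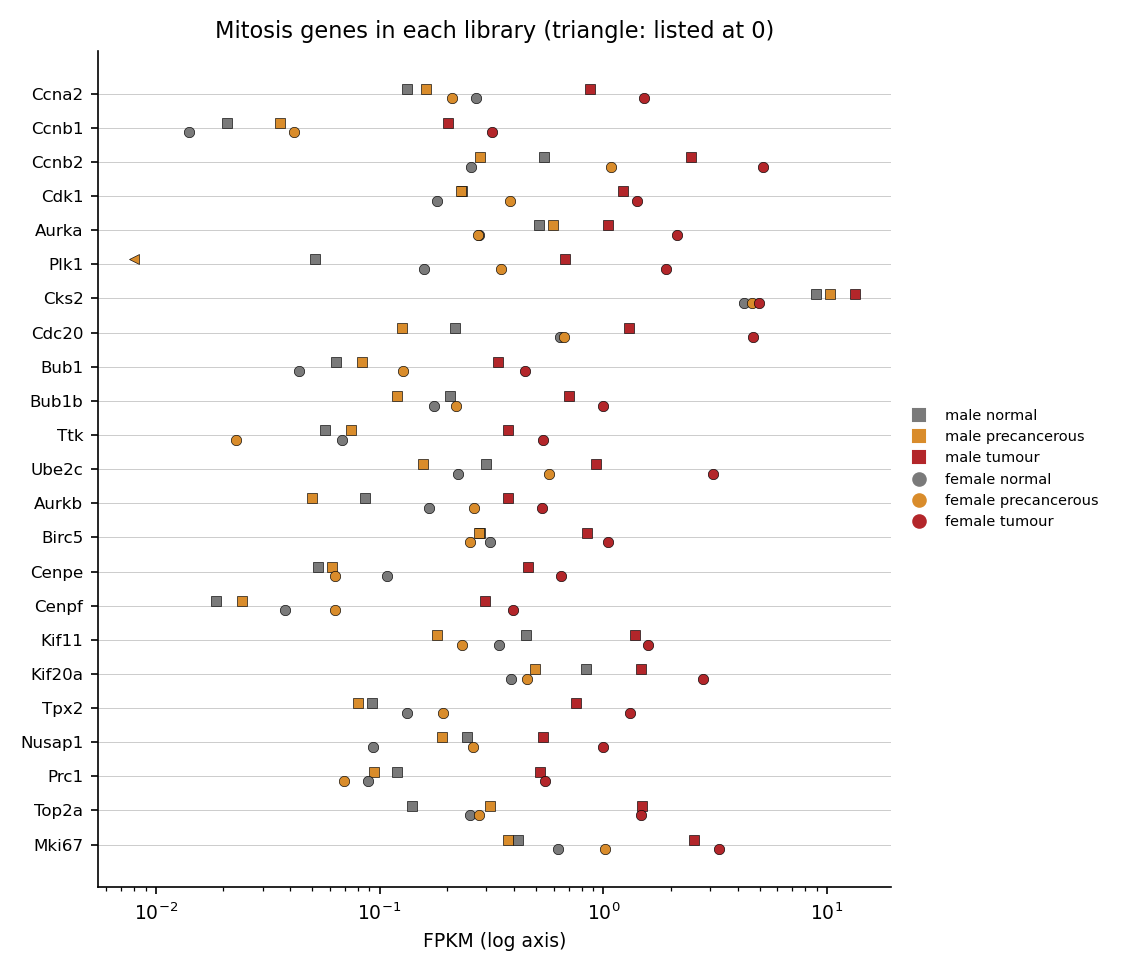
FPKM (log axis) of the 23 mitosis genes in each library; squares are male and circles female libraries, grey normal, orange precancerous and red tumour, and the triangle marks Plk1 listed at 0 in male precancerous liver. Both tumours lie to the right of the 4 other libraries for all genes except Cks2.

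Between precancerous and normal liver none of the 42 genes was called by edgeR, where 0.109% of all genes were called higher and 0.139% lower; 2, Ccne1 and Tk1, had an unadjusted p under 0.05, and DESeq2 called Ccne1. The mitosis sum in precancerous liver was 0.943-fold that of normal liver in males (0.771 to 1.15) and 1.33-fold in females (1.18 to 1.49). Among single mitosis genes, none of 23 in males and 5 in females (Ccnb2, Cdk1, Ube2c, Nusap1 and Mki67) had a precancerous level above the normal one beyond counting error. This was so for 13.7% of all genes in males and 21.6% in females, whose deeper libraries give narrower intervals, so the female share is near that of all genes. Ccnb2 was the furthest apart, with a ratio of 4.19 (1.76 to 11.5) on 7 and 25 counts in female normal and precancerous liver. Whether the difference between the sexes in the sums exceeds the spread between mice could not be tested with single libraries. Tk1 was higher in precancerous than in normal liver in both sexes, 1.89-fold in males (1.46 to 2.47) and 1.33-fold in females (1.16 to 1.54), but did not pass (0.61 ± 0.20, adjusted p = 0.270, edgeR). Rrm2 was likewise higher beyond counting error in both, 1.48-fold (1.01 to 2.20) and 1.70-fold (1.27 to 2.29), with a fitted change of 0.68 ± 0.38.

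Between tumour and normal liver, 30 of 42 genes rose and 2 fell, where 16.5% of all genes were called higher and 15.6% lower. This comparison shares its libraries with those above and is no separate evidence. The mitosis genes rose in 22 of 23 cases, all but Cks2, and the replication genes in 7 of 16, with Cdc6, Mcm4 and Rrm2 added to the 4 Mcm genes named above. Mcm10 (-2.34 ± 0.43, adjusted p = 0.0135, edgeR) and Tk1 (-1.29 ± 0.22, adjusted p = 0.0106, edgeR) fell. The count was 13 without female normal liver, when 15.5% of all genes were called.

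Males and females differed in 6 of 42 genes, 3 in each direction, where 15.8% of all genes tested were called higher and 14.5% lower in males. Gins2 (2.88 ± 0.22, adjusted p = 0.00204, edgeR), Ccne2 (1.52 ± 0.25, adjusted p = 0.0122, edgeR) and Cks2 (1.16 ± 0.18, adjusted p = 0.0117, edgeR) were higher in males. Cdc20 (-1.94 ± 0.28, adjusted p = 0.00942, edgeR), Plk1 (-1.95 ± 0.54, adjusted p = 0.0461, edgeR) and Mki67 (-0.80 ± 0.21, adjusted p = 0.0431, edgeR) were lower in males. The calls of Plk1 and Mki67 were lost with library totals in place of TMM scaling and in limma with a pseudocount of 1. That of Plk1 was also lost in DESeq2, and that of Mki67 in limma with a pseudocount of 0.1. A model of sex alone lost both and Cdc20. The count was 1 without the male and 1 without the female precancerous library, when 5.88% and 5.96% of all genes were called. Gins2 was at 1.60, 2.66 and 3.09 FPKM in males and at 0.260, 0.263 and 0.418 FPKM in females, but 67.3% of its exonic bases lie under exons of Gse1 on the other strand. Gse1 was at 1.68, 1.84 and 2.34 FPKM in males and 1.25, 2.26 and 4.10 FPKM in females. Of 264 tested genes with at least 50% of their exonic bases under exons of the other strand, 62.1% were called higher in males, against 13.3% of 9197 genes with no such base. The sexes therefore cannot be compared for Gins2, and the part of this overlap in the values of Ccne2 (17.4% under Ints8), Ccnd1 (23.4% under Oraov1), Kif20a (29.3% under Cdc23), Ube2c (22.8% under Tnnc2), Ccna2 (12.5% under Exosc9) and Prc1 (11.1% under Rccd1) was not tested. Cks2, Mki67 and Mcm10 have no such overlap.

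As summed CPM, the female to male ratios by role lay on opposite sides of 1 in tumours and in precancerous liver. As summed FPKM the order of the mitosis genes turned in precancerous liver, at 14.3 in males and 11.7 in females. Cks2 supplied 71.9% and 39.3% of those sums. In tumours the order held, at 34.2 FPKM in males and 41.8 FPKM in females. The ratios below are of summed CPM. The mitosis sum in females was 0.95-fold that in males in normal liver (0.803 to 1.13), 1.34-fold in precancerous liver (1.14 to 1.57) and 1.42-fold in tumours (1.32 to 1.53). The replication sum without Gins2 was 0.652-fold (0.61 to 0.698), 0.847-fold (0.79 to 0.908) and 0.856-fold (0.803 to 0.912), lower in females in every tissue while Mcm10 was kept in it. With Gins2 the tumour value was 0.805. In normal liver Mcm10 alone was 0.287-fold in females (0.256 to 0.321). Without Mcm10 but with Gins2, the normal sums were nearly level, at 111.6 CPM in males and 110.3 CPM in females. The same sums were 142.3 and 123.5 CPM in precancerous liver and 198.4 and 156.9 CPM in tumours. A sum without both Mcm10 and Gins2 was not made, so the order of the sexes without both was not tested. Of the 15 single genes without Gins2, 2 were higher and 2 lower in female normal liver beyond counting error, as were 24.5% and 30.9% of all genes. In precancerous liver 1 was higher and 3 were lower, as were 23.3% and 28.6% of all genes. Of the mitosis genes, 10 of 23 were higher in the female than in the male tumour beyond counting error, as were 22.9% of all genes, and Cks2 alone was lower, as were 32.3% of all genes. Of the 15 replication genes without Gins2, Rrm2 alone was higher and 7 were lower. Of the mitosis genes, Cdc20 was 3.59-fold higher in the female tumour (2.30 to 5.85), Ube2c 3.34-fold (2.07 to 5.69), Plk1 2.84-fold (1.68 to 5.14) and Aurka 2.02-fold (1.36 to 3.10). Male and female libraries also differed in total counts and in the values of genes under exons of the other strand. With 1 tumour of each sex, sex, age, the single tumour and the making of the libraries cannot be told apart.

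To show what the genes share in sequence, RefSeq promoters of build GRCm38.p6 were searched on both strands from 250 bases before to 50 bases after the gene start; 33 of the 42 genes had an entry (19 mitosis and 13 replication genes among them). The motifs were the CHR element (TTTGAA), the CCAAT box (CCAAT) and an E2F-type site (TTCCCGC or TTGGCGC), chosen because they are known elements of these gene classes. The CHR element was found in 13 of 19 mitosis promoters (68.4%), in 1 of 13 replication promoters (7.69%, Mcm2), in 20.2% of all 27025 genes with a promoter and in 14.6% of the 10017 tested genes with one. A CCAAT box was found in 89.5%, 69.2%, 41.1% and 42.9% in the same order, and an E2F-type site in 15.8%, 53.8%, 7.79% and 13.5%. All 13 mitosis promoters with a CHR element also held a CCAAT box upstream of at least 1 such element. The closest pair of each gene lay at a median of 32 bases (range 9 to 153). Both motifs, in any order, were held by 68.4% of mitosis promoters, 7.69% of replication promoters, 7.97% of all genes and 5.91% of tested genes. Among genes with a CHR element, a CCAAT box was also held by 2155 of 5466 in all and by 592 of 1461 tested ones. E2F-type and CCAAT matches overlapped in Ccnb1 and Mcm7. A match is a description of letters and not of binding.

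**Figure D5:**
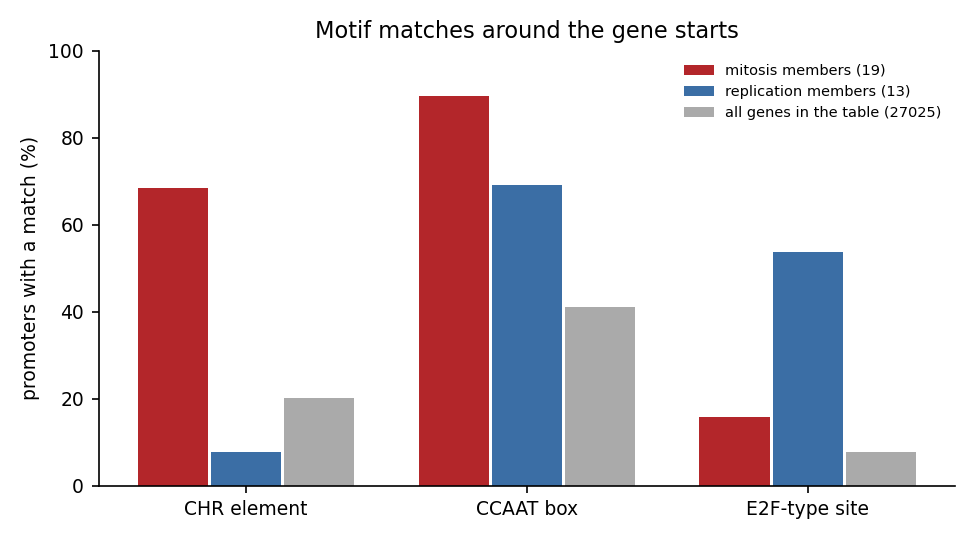
Share of promoters with at least 1 match to each motif (vertical axis, percent) for the mitosis genes, the replication genes and all genes of the promoter table. The CHR element is found in 68.4% of mitosis and 7.69% of replication promoters, and the E2F-type site in 15.8% and 53.8%.

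The late mitosis genes Ccnb2 (chr9:70421545-70421704, minus strand), Cdc20 (chr4:118437334-118437493, minus strand), Cdk1 (chr10:69352903-69353062, minus strand) and Ube2c (chr2:164769779-164769938, plus strand) show the pairing of CCAAT boxes with a CHR element close to the start. Sequences run from 150 bases before to 10 bases after the RefSeq start, 5′ to 3′ in the direction of the gene, and capitals mark CHR, CCAAT and E2F-type matches on either strand (TTCAAA is the CHR and ATTGG the CCAAT box on the other strand).
Ccnb2: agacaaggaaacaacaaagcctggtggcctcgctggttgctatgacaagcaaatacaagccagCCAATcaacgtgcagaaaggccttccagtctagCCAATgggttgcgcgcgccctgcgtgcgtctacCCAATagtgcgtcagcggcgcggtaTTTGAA
Cdc20: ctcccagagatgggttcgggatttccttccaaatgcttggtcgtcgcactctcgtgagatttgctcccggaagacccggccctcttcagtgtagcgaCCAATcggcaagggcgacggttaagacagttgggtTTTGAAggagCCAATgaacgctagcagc
Cdk1: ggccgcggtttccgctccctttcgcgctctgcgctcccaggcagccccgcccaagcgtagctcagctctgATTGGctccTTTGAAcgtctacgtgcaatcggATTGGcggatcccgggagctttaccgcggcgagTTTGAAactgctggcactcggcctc
Ube2c: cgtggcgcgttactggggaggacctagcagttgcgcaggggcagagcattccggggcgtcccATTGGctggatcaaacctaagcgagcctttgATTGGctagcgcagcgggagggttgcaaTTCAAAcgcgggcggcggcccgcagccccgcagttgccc

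The replication genes that rose most are shown for contrast: Mcm6 (chr1:128359696-128359855, minus strand) and Mcm5 (chr8:75109359-75109518, plus strand) hold E2F-type sites (GCGCCAA on the other strand) with CCAAT boxes and no CHR element, and Mcm2 (chr6:88898771-88898930, minus strand), with the largest log2 fold change of the replication genes, holds the only CHR element found among the replication promoters.
Mcm6: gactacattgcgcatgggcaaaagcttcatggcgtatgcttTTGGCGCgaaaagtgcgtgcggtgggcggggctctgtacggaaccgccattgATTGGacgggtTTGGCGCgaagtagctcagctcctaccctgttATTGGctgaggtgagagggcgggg
Mcm5: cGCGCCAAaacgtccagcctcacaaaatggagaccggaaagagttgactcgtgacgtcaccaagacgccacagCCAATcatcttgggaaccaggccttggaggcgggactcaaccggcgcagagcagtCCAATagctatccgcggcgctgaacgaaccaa
Mcm2: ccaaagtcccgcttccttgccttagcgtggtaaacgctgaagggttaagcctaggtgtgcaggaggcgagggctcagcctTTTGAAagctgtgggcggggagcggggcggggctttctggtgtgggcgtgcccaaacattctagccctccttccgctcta

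The genes that fell are shown last. Mcm10 (chr2:5012782-5012941, minus strand) had CCAAT boxes and neither of the other motifs. Tk1 (chr11:117826005-117826164, minus strand) had no match to any of the 3 motifs in its whole window. A lack of matches was not limited to genes that fell. Birc5 and Ccne1, which rose, had no match to any motif either, nor did Nusap1 and Tyms, which did not pass. Cenpe, Bub1 and Ccnb1 rose and had no CHR element.
Mcm10: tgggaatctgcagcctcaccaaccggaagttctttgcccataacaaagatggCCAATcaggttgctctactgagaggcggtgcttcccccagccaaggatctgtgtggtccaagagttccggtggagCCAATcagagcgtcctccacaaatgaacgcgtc
Tk1: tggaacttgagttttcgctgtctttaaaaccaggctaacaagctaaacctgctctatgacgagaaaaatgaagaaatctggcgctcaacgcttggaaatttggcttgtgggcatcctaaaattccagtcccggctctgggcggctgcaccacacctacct

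Other genes of division outside the 42 were counted in the same way, against the 13.4% of all genes called higher and 11.6% called lower. Of 50 other mitosis genes, 43 had enough counts, 31 rose and 1 (Spc24, a kinetochore gene, -0.94 ± 0.20) fell between tumour and precancerous liver, with a median of 1.76. The filter sums counts over all 6 libraries, so genes low outside the tumours can pass it through their tumour counts. The 31 of 43 can thus lean towards rises. The largest called changes were in Melk, Pbk, Hmmr (3.12 ± 0.39) and Ckap2 (3.05 ± 0.46). Melk and Pbk rest on 0 to 3 counts in the precancerous libraries. Of 35 other replication genes, 34 were tested and 5 rose, a share near that of all genes, with a median of 0.18: Uhrf1 (2.54 ± 0.49), Chaf1a (1.59 ± 0.29), Cdc45 (1.49 ± 0.33), Chaf1b (1.48 ± 0.40) and Fen1. Uhrf1 helps in the copying of DNA methylation to new strands and Chaf1a and Chaf1b place histones on them. Exons of the other strand cover 52.5% of the exonic bases of Chaf1a (Ubxn6) and 78.8% of those of Fen1 (Gm10143), whose part in their values was not tested.

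Of 33 cell cycle regulators, 7 rose and 2 fell, read against the same shares of 13.4% and 11.6%. Foxm1, an activator of late cell cycle genes, stood at 0.0549, 0.0637 and 0.388 FPKM in males and 0.0745, 0.182 and 0.488 FPKM in females (1.73 ± 0.37, adjusted p = 0.0271, edgeR). Rbl2, a pocket protein of the repressing DREAM complex, fell by 1.02 on the log2 scale. It went from 6.15 to 3.20 FPKM between male precancerous and tumour tissue and from 6.20 to 3.17 FPKM in females. Exons of Aktip and Gm45464 on the other strand cover 9.2% and 11.8% of the exonic bases of Rbl2, whose part was not tested. Elsewhere on the same list, both tumours stood above the 4 other libraries for the pocket protein Rbl1 and for Lin9. This was so for 22.9% of all genes. For E2f4, Lin37, Lin52, Lin54 and Mybl2 the tumours did not stand clear of the other libraries. Pkmyt1 (2.58 ± 0.40), a kinase that restrains Cdk1, and Cdc25a (1.15 ± 0.19), a phosphatase that frees Cdk2, both rose. Of 7 CDK inhibitors 3 rose: Cdkn2b (3.90 ± 0.27), Cdkn2a (3.52 ± 0.54) and Cdkn1a (3.22 ± 0.55). Cdkn2a, a brake on the cycle, was at 0.119, 0.103 and 7.65 FPKM in males and 0.604, 1.42 and 10.7 FPKM in females, so genes that restrain the cycle were raised in the same tumours as the mitosis genes.

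Markers of other dividing or infiltrating cells were read beside these values. T and NK cell markers summed to 13.9 and 15.0 CPM in the male and female tumour and to between 5.08 and 17.0 CPM in the 4 other libraries; 2 of 8 tested rose. From precancerous liver to tumour their sum was 2.73-fold in males (1.85 to 4.14) and 1.72-fold in females (1.39 to 2.13). B and plasma cell markers summed to 18.5 and 10.9 CPM in the tumours and to between 5.66 and 48.8 CPM elsewhere, with 0 of 6 called by edgeR and 0 at an unadjusted p under 0.05. Macrophage and Kupffer cell markers summed to 238.9 and 330.2 CPM in tumours and to between 347.0 and 650.4 CPM elsewhere, with 2 of 10 higher and 6 lower. Stellate cell and fibroblast markers summed to 299.8 and 415.0 CPM in tumours and to between 94.0 and 179.6 CPM elsewhere, with 5 of 8 higher and 1 lower, and cholangiocyte markers to 640.4 and 728.9 CPM against 44.4 to 73.4 CPM, with 3 of 6 higher, mostly through Spp1, at 115.4 and 129.0 FPKM in the tumours. No listed marker of these 5 lists was at 0 in both tumours. The sums of stellate, cholangiocyte and T and NK cell markers were thus higher in tumour than in precancerous liver of both sexes, as the mitosis genes were. So was the B and plasma cell sum, from 5.66 to 18.5 CPM in males and from 9.10 to 10.9 CPM in females. Endothelial and erythroid marker sums were lower in tumour than in precancerous liver of both sexes. The neutrophil sum was lower in males and higher in females. The part of all these markers in the mitosis sums was not tested.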

How the data were processed

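The deposited table held whole-number read counts, not normalized, and FPKM values per gene. Each deposited FPKM was the gene's count over its length and the library total (ratio between 0.99998 and 1.00002 for genes with 50 counts or more). The submitters' processing notes name TopHat2 2.0.9, Cuffdiff, GRCm38 and mm10. The library kit was stranded, per the labels' protocols; no strand setting for counting was given in the sources used here. Genes with at least 60 counts over the 6 libraries (13705) were tested with edgeR 4.0.16 (R 4.3.3; TMM; quasi-likelihood; tissue plus sex; 2 residual degrees of freedom; two-sided; SE is the log2 fold change over the square root of F). An FPKM filter was not used as the main one because it keeps 25 of the 42 members. DESeq2 1.42.0 and limma 3.58.1 (pseudocounts 1 and 0.1) were alternatives. Single libraries were compared by CPM with exact 95% counting intervals; a count of 0 was replaced by a floor of 3 counts. Counts were also simulated for 13705 genes (tumour against precancerous, 200 changed, 3 runs). On these edgeR recovered 46.7% of the 2-fold and 91% of the 4-fold changes and made 3 false calls per run. The simulation gave both sexes the same mean and the same tissue change, unlike the real libraries. These rates therefore need not hold for the real comparison. All 42 members could be named. Of other lists, at most 4 called genes with the largest change could be named, and of marker lists the genes with the highest counts. Spc24, Fen1, Foxm1, Rbl2, Cdc25a, Rbl1, Lin9, E2f4, Lin37, Lin52, Lin54 and Mybl2 were named after their values were seen where they fall outside this. The members and lists were chosen with earlier results of these data known. Exon overlaps are from GENCODE, promoters from RefSeq.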

Additional observations from a re-analysis of the deposited data

Results flagged for a closer look

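Cyclin D1 (Ccnd1) moved in opposite directions in the sexes beyond counting error, in single libraries and without a test of the difference. The precancerous level was 1.30-fold the normal level in males (1.05 to 1.63) and 0.639-fold in females (0.597 to 0.684). The tumour level was 7.52-fold the normal level in males (6.30 to 9.02) and 0.860-fold in females (0.811 to 0.912). Ccnd1 shares 23.4% of its exonic bases with Oraov1 on the other strand, which stood at 2.26, 2.99 and 5.71 FPKM in males (normal, precancerous, tumour) and at 2.33, 2.14 and 1.90 FPKM in females; its part in the difference was not tested.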

How the results depend on the processing

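No paired analysis was possible because the labels number no replicates and each group holds 1 library. Leaving out each library in turn, with a fit that pools the spread and takes a lone library to vary like the others, gave 2 to 27 called members for tumour against precancerous (26 with all), 0 to 1 for precancerous against normal (0), 13 to 28 for tumour against normal (32) and 1 to 7 for males against females (6). The FPKM filter gave 13 and 17 called members in the tumour comparisons with precancerous and normal liver, with 25 members tested, and a model of tissue alone gave 1 and 7; sex alone gave 3 between the sexes. For precancerous against normal, no filter and DESeq2 each called 1, Ccne1. As the geometric mean over the sexes, the mitosis sum for tumour against precancerous was 4.51 (2.92 as summed FPKM), for precancerous against normal 1.12 (0.943 in males, 1.33 in females) and for tumour against normal 5.04 (3.35 as summed FPKM, 4.12 in males, 6.17 in females). The replication sum for tumour against precancerous was 1.11 (1.21 as summed FPKM, 1.33 without Mcm10, 1.60 without Mcm10 and Tk1). For precancerous against normal it was 0.953 and its direction turned in females (1.07), as summed FPKM (1.06), without Mcm10 (1.20) and without Mcm10 and Tk1 (1.13), but not in males (0.851). For tumour against normal it was 1.05 (1.003 with TMM-scaled totals, 1.28 as summed FPKM, 1.59 without Mcm10, 1.81 without Mcm10 and Tk1, 0.937 in males, 1.19 in females). The sum without Mcm10 and Tk1 was added after seeing the data, as was that without Gins2 between the tumours of the sexes (0.856, 0.805 with it). Changes of tumour against precancerous near 0 turned sign: Pcna with library totals (0.023) and in limma with a pseudocount of 1 (0.021) or 0.1 (0.023); Cdt1 with DESeq2 size factors (-0.00663), with no filter (-0.00838) and without a library (-0.40 to 0.51); and Ccne2 without a library (-0.53 to 0.069). The cause of these moves was not tested. Depth limits the mitosis genes most, since 18 of 23 had under 10 counts in at least 1 library, against 1 of 16 replication genes and 1 of 3 G1 cyclins.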
